A study of Mus musculus with 4 samples.

Results

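The variable (V) segments of the T cell receptor alpha chain were described in RNA-seq counts of mouse T cells. The members are all genes whose mouse GENCODE symbol starts with Trav, 128 of the 50600 genes in the count files, and this rule reads the symbol and no measured value. The mice were of the strain C57BL/6NJ, and their primary T cells gave 4 libraries of 1 group, numbered as biological replicates 1 to 4. A differentiation protocol linked in the labels is named for CD4+ T cells. The file headers call the cells Th0, activated, at 16 h, and Th0 commonly stands for CD4+ cells stimulated in the absence of polarising cytokines. The labels give a shared donor identifier over 4 biosamples and do not say whether these were separate animals, so the p-values below measure only the spread between these samples, part of which may be technical. No second condition was measured, so the questions were which segments the cells used, where they lie, how closely the 4 libraries matched and how far copies of near-identical sequence limit the counts.

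Each T cell that makes an alpha-beta receptor has cut and joined its DNA so that a Trav segment stands beside a joining segment (Traj) and is transcribed with the constant region Trac. The V segment supplies most of the variable part of the chain, and a population of T cells with many different receptors uses many segments. In thymocytes an early rearrangement can be replaced by a later one that joins a V segment farther from the Traj cluster to a Traj segment farther along. In C57BL/6 mice much of the Trav locus has been duplicated, and the letters d and n in a symbol mark the duplicated copies. Segments with dv in the symbol can also be joined to the delta chain, whose genes lie inside the same locus. The gene counts do not show which Traj a segment was joined to, and in bulk RNA a larger number of cells with a segment cannot be told apart from more receptor RNA per cell.

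The 12 segments with the highest mean share of Trav counts are shown by the last 60 bases of their coding part, since this end is the one joined to Traj. Capitals mark the last in-frame cysteine codon, the conserved cysteine that opens the hypervariable junction of the chain. Coordinates are those of GRCm38 (mm10), the sequences are GENCODE's, and each stretch lies inside the exon of the V segment.
Trav14n-3, chr14:53370516-53370575, plus strand: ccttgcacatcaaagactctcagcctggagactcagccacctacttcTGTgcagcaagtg
Trav3-3, chr14:53666447-53666506, plus strand: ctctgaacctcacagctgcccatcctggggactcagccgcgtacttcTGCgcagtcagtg
Trav4-4-dv10, chr14:53684118-53684177, plus strand: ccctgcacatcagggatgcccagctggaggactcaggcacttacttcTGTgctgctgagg
Trav14-2, chr14:53641166-53641225, plus strand: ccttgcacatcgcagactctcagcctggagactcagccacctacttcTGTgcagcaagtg
Trav14d-3-dv8, chr14:53078986-53079045, plus strand: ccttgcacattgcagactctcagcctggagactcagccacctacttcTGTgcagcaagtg
Trav13-1, chr14:53545466-53545525, plus strand: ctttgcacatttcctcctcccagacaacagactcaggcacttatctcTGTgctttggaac
Trav14-3, chr14:53763635-53763694, plus strand: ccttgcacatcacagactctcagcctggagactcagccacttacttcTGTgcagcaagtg
Trav9-2, chr14:53591455-53591514, plus strand: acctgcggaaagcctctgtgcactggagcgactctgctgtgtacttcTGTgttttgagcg
Trav7-5, chr14:53531254-53531313, plus strand: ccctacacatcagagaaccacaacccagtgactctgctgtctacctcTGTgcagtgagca
Trav9-4, chr14:53676571-53676630, plus strand: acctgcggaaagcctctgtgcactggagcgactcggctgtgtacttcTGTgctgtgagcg
Trav14-1, chr14:53554499-53554558, plus strand: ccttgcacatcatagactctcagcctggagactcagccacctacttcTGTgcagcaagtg
Trav12-3, chr14:53622186-53622245, plus strand: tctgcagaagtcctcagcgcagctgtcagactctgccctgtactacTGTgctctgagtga
The codon was TGT in 11 segments and TGC in Trav3-3, and it began 13 bases from the end in 11 of the 12. The 5 segments of the Trav14 subgroup among them had the same bases from that codon to the end, so their ends cannot be told apart there. In Trav12-3 the codon began 14 bases from the end.

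In replicates 1 to 4, 4940, 4812, 6243 and 4575 read pairs were counted on Trav segments, out of library totals of 53619400, 48931322, 63313389 and 46192242. Trav segments therefore took 0.00921% (95% Wilson interval 0.00896 to 0.00947), 0.00983% (0.00956 to 0.0101), 0.00986% (0.00962 to 0.0101) and 0.0099% (0.00962 to 0.0102) of all counts, with replicate 1 below the other 3. Intervals here and below cover counting error only. Per exonic length, the Trav segments together reached 844 ± 36.2 TPM (a length-corrected level whose sum is equal in each library; SD, n = 4) and Trac, the constant region they are spliced to, 1883 ± 25.6 TPM. All 6 T cell markers and all 3 CD4 markers reached 1 TPM in every library. None of the 4 B cell, 3 macrophage, 3 NK and 3 dendritic cell markers did. Of the 2 CD8 coreceptor chains, Cd8a lay at 0.990, 1.06, 0.831 and 0.225 TPM and Cd8b1 at 60.1, 61.1, 53.3 and 55.5 TPM. Xist, the RNA of the inactive X chromosome, lay at 141, 116, 0.269 and 0.303 TPM, and the Y-linked gene Ddx3y at 0.0597, 0.104, 39.7 and 42.8 TPM. Replicates 1 and 2 thus stood apart from replicates 3 and 4 in sex-linked genes, and these pairs of libraries did not come from the same animal. The labels give the sex as not collected.

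Of the 128 members, 58 reached 10 counts in every library, 19 had counts but fell under 10 in at least 1 library, and 51 had no count in any library. The 58 detected members held 97.2% of the 20570 Trav counts, with a median mean share of 1.00%, and the 19 others held 573 counts in all. A count of 0 allows a share of up to 0.0607%, 0.0623%, 0.0481% and 0.0656% of Trav counts in replicates 1 to 4 (3 counts of each Trav total). GENCODE types 108 members as V genes and 20 as V pseudogenes. The V genes counted 57 detected members and the pseudogenes 1.

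Use was spread over many segments, and no single segment dominated. The most used, Trav14n-3, held 5.65 ± 0.966% of Trav counts (SD, n = 4), the 10 most used together held 42.6 ± 3.04%, and the 30 most used held 77.4 ± 1.65%. The effective number of segments (the inverse Simpson index, which would equal the number of segments if all were used alike) was 35.9 ± 2.17, from 33.5 in replicate 4 to 38.1 in replicate 1. Replicates 2 and 4 had the larger shares in the 10 most used segments, 45.4% and 45.0%, against 39.8% and 40.0% in replicates 1 and 3.

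Trav14n-3 (ENSMUSG00000076824.3, chromosome 14, 53370077 to 53370575) had 257, 307, 281 and 298 counts in replicates 1 to 4, or 5.20% (95% Wilson interval 4.62 to 5.86), 6.38% (5.72 to 7.11), 4.50% (4.01 to 5.04) and 6.51% (5.83 to 7.27) of Trav counts. Trav3-3 (ENSMUSG00000094828.5, 53665929 to 53666506) had 246, 230, 344 and 289 counts, a mean share of 5.40 ± 0.687%. Trav4-4-dv10 (ENSMUSG00000096096.3, 53683647 to 53684177), which can also serve the delta chain, had 271, 219, 287 and 247 counts, a share of 5.01 ± 0.503%. These 3 segments were at or above 4.50% of Trav counts in every library, and their order changed from library to library.

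Trav14-2 had 160, 257, 323 and 178 counts and a share of 4.41 ± 1.02%, with replicates 2 and 3 high and replicates 1 and 4 low. Trav13-1 showed the same 2 high libraries, with 142, 231, 304 and 169 counts and a share of 4.06 ± 0.956%. Trav14d-3-dv8 had 176, 219, 293 and 216 counts and a share of 4.38 ± 0.551%. Its share was lowest in replicate 1 and close together in the other 3.

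Trav14-3 had 189, 212, 179 and 198 counts (3.86 ± 0.708%) and Trav9-2 had 190, 180, 155 and 183 counts (3.52 ± 0.698%). Both had their lowest count in replicate 3, the deepest library. Trav7-5 (178, 165, 170 and 136 counts, 3.18 ± 0.405%) and Trav9-4 (158, 163, 164 and 145 counts, 3.10 ± 0.327%) varied less. Trav14-1 (127, 112, 175 and 147 counts) held 2.73 ± 0.377%, and Trav12-3 (141, 145, 174 and 93 counts) held 2.67 ± 0.436%. Along the order of these 12 segments, 0 of 11 neighbouring pairs differed in mean share by more than the larger of their SDs. Per exonic length the 12 lay between 19.6 and 51.1 TPM.

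**Figure D1:**
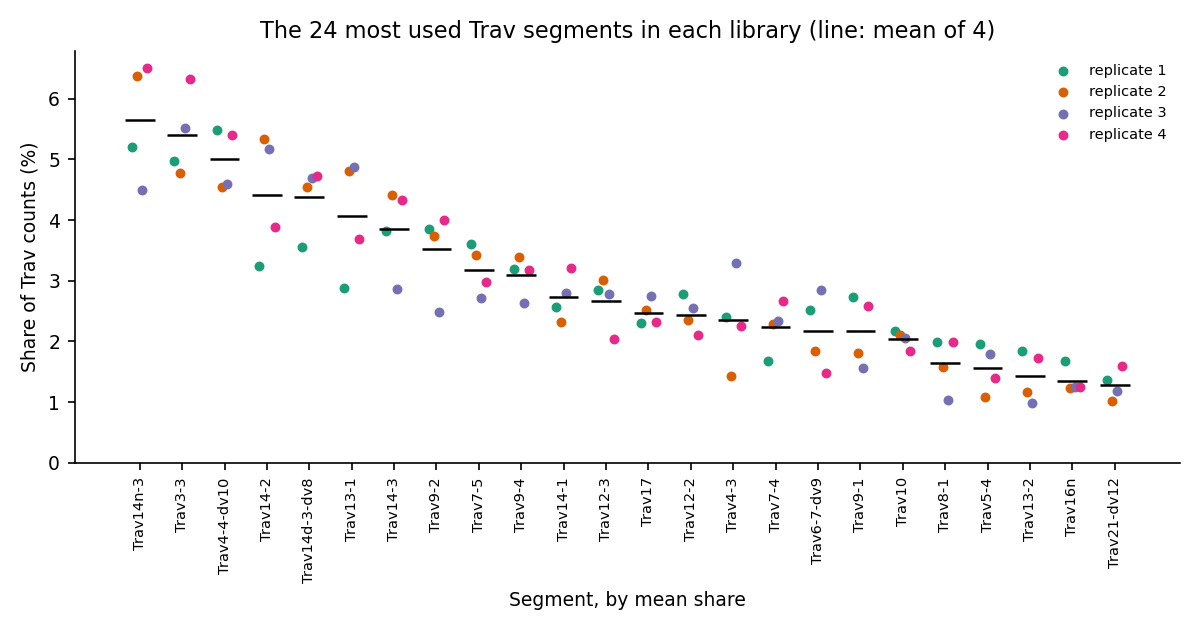
Share of Trav counts (%) of the 24 most used segments in each of the 4 libraries, with the mean of the 4 as a line. The shares fall gradually, from 5.65% for Trav14n-3 to 1.29% for Trav21-dv12, and the libraries cross each other from segment to segment.

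By subgroup, the set of segments that share a number, Trav14 had the largest share, 21.03 ± 2.20% of Trav counts. It lay at 18.4%, 23.0%, 20.04% and 22.7% in replicates 1 to 4. Its 9 members included 5 that were detected, all of them among the 12 most used segments, and 4 with no count (Trav14d-1, Trav14n-1, Trav14d-2 and Trav14n-2). None of these 4 had a stretch of 100 bases found in no other gene, so their counts of 0 do not measure use. Members with no count numbered 6 of 10 in Trav12 and 0 of 5 in Trav8. The order of subgroups is therefore that of the reads that could be counted. Subgroups Trav7 (10.4 ± 0.591%), Trav9 (10.1 ± 0.914%), Trav6 (9.28 ± 1.43%), Trav4 (8.21 ± 1.17%) and Trav13 (8.08 ± 1.03%) followed. The 9 subgroups with 1 member held 6.15% of the Trav counts together, of which Trav17 gave the most, with 114, 121, 172 and 106 counts.

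All members lay on the plus strand of chromosome 14 between 52427928 and 53977678, and the first Traj segment began at 54155005. Ordered along the chromosome and cut into 3 sets of nearly equal number, the 42 members nearest to Traj held 67.5 ± 1.17% of Trav counts, the 44 in the middle 22.2 ± 0.940% and the 42 farthest 10.4 ± 0.397% (SD, n = 4). The near set lay at 68.6%, 66.1%, 66.8% and 68.2% in replicates 1 to 4, above both other sets in each library. It held 30 detected members and 6 with no count, against 15 and 21 in the middle and 13 and 24 in the far set. Of the 12 most used segments 10 lay in the near set, the exceptions being Trav14n-3 and Trav14d-3-dv8 in the middle. Members without a unique 100-base window, described further on, numbered 1 in the near set, 20 in the middle and 19 in the far set. The median summed count of the detected members was 448 in the near set, 188 in the middle and 158 in the far set. Over the 29 members whose windows were all unique, detected or not, it was 82, 25 and 158 in the same order of sets. Of these 29, 9 of 17 were detected in the near set, 1 of 5 in the middle and 6 of 7 in the far set. Pseudogenes among them numbered 6, 3 and 1. These medians thus cover different kinds of members and cannot be set against those of the detected members. Counts per unique window were summed over members with at least 50 unique windows, and the near set held 65.0% of that sum. Among members with at least 50% unique windows it held 70.2% of the counts.

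Use did not increase all the way to the Traj cluster. In steps of 200 kb, the 19 members at 400 to 600 kb from Traj held 37.5 ± 0.969% of Trav counts and the 19 at 600 to 800 kb held 29.2 ± 0.884%. The 11 members at 200 to 400 kb held 10.2 ± 0.770%, and the single member nearer than that, Trav23 (53977153 to 53977678, 177 kb from Traj), had no count. At 800 to 1000 kb, 24 members held 3.45 ± 0.574% and 19 of them had no count. At 1000 to 1200 kb, 19 members held 9.36 ± 0.566%. The 19 n copies without a unique window lay between 817 and 1008 kb, and 18 of them had no count. The 19 d copies without a unique window lay between 1147 and 1333 kb, all with no count. The low share at 800 to 1000 kb thus cannot be read as low use, and the shares over both stretches are those of reads that could be counted. Trav1, the farthest member (52427928 to 52428876, 1726 kb from Traj), had 41, 53, 22 and 44 counts, or 0.811 ± 0.325% of Trav counts.

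**Figure D2:**
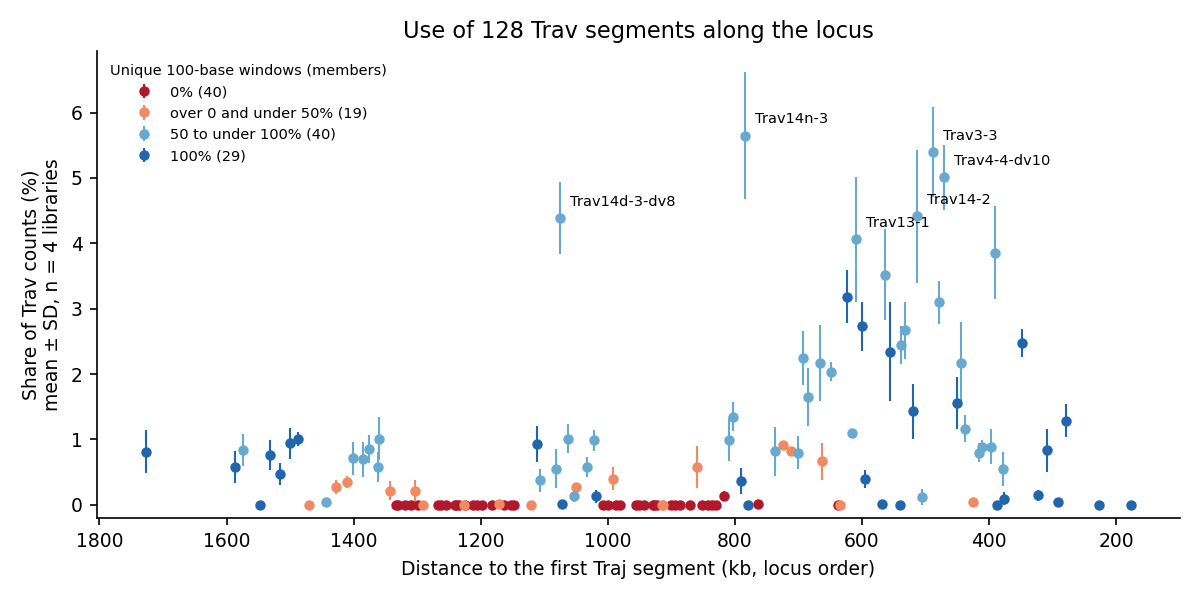
Mean share of Trav counts (%, error bars SD, n = 4 libraries) of each of the 128 members against its distance to the first Traj segment in kb, coloured by the percent of its 100-base windows found in no other gene. Of the 12 most used segments, 10 lie between 391 and 624 kb from Traj, with Trav14n-3 at 784 kb and Trav14d-3-dv8 at 1076 kb, and 38 of the 40 members with no unique window lie at 0.

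How far a segment can be counted depends on whether its reads map to 1 place. The share of 100-base windows of each member that occur in no other GENCODE transcript ran from 0% to 100%. Of the 40 members without a unique window, 38 had no count and the other 2, Trav13n-3 and Trav7-2, had 28 and 1 counts. Of the 88 members with at least 1 unique window, 13 had no count and 58 were detected. The 40 members at 50 to under 100% had no member at 0 and held 72.5% of the Trav counts, the 29 at 100% held 22.5%, and the 19 at over 0 and under 50% held 4.86%. With windows of 50 bases, 40 of 42 members without a unique window had no count, and with 150 bases 38 of 40. A count of 0 in a member without a unique window is therefore no measure of its use.

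The same was seen in pairwise comparison. For 42 members the nearest other member showed no difference over the bases that could be compared, and 41 of these had no count. Some of the 42 were longer than their match, and 4 of them had at least 1 unique 100-base window. Of 66 members at 98% identity or more with their nearest member, 43 had no count and 15 were detected. Of the 62 members under 98%, 8 had no count and 43 were detected. Of the 6 members at 0 whose windows were all unique, 5 were pseudogenes (Trav4-1, Trav15n-3, Trav5-2, Trav15-3 and Trav22) and the other was Trav23. The opposite strand of Trav13n-3 and Trav13d-3 carries the antisense genes Gm43650 and Gm30214, and no member shares exons with another gene on its own strand.

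**Figure D3:**
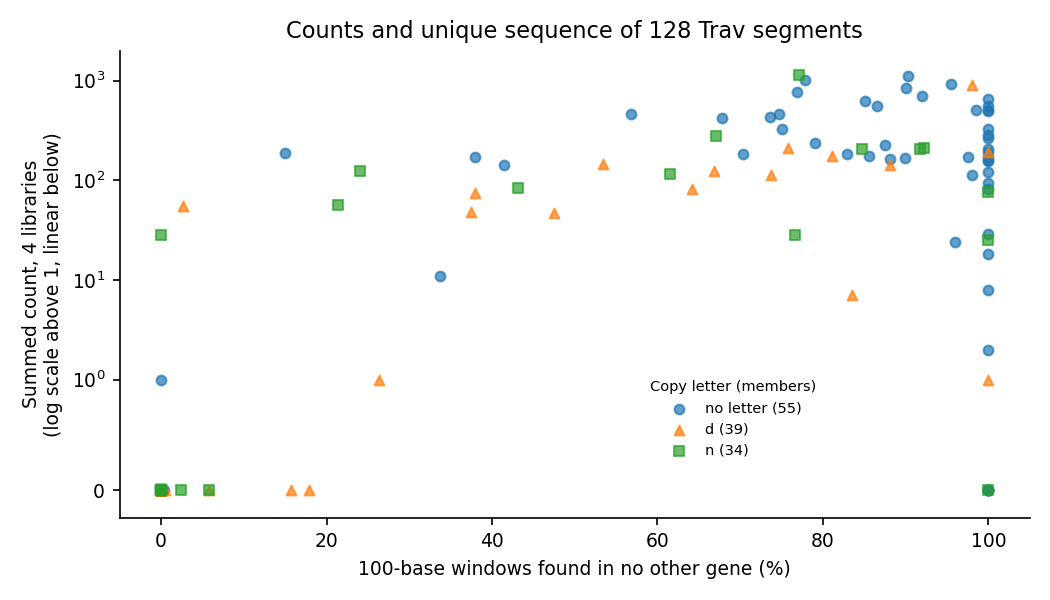
Summed count over the 4 libraries of each of the 128 members (log scale above 1) against the percent of its 100-base windows found in no other gene, by copy letter. Of the 40 members at 0% on the x axis, 38 lie at 0 counts, and the members above 50% reach up to 1143 counts.

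The unlettered segments (55 members) held 76.2 ± 1.30% of Trav counts, the d copies (39 members) 11.2 ± 1.25% and the n copies (34 members) 12.6 ± 0.741%. Of the 40 members without a unique window, 38 were d or n copies. Trav segments of 40 numbers were present as 2 or 3 copies, and 31 of these numbers had all 3. In 16 of the 31 the d and n copies were both at 0 and the unlettered copy was counted, and in 10 all 3 were counted.

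Trav3-3, the second most used segment, is such a case: all 1109 counts of its number fell on the unlettered copy, while Trav3d-3 and Trav3n-3 had 0. Over 343 coding bases Trav3d-3 and Trav3n-3 had no difference, and each differed from Trav3-3 at 4 positions. The stretch of 120 bases with most differences is shown, with the 2 positions that differ in capitals.
Trav3-3, chr14:53666234-53666353, plus strand: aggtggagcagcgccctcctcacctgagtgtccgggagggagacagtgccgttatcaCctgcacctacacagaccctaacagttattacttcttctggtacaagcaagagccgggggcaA
Trav3d-3, chr14:52972766-52972885, plus strand: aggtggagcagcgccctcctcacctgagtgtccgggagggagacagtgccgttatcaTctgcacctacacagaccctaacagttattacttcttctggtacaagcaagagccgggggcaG
Trav3n-3, chr14:53283903-53284022, plus strand: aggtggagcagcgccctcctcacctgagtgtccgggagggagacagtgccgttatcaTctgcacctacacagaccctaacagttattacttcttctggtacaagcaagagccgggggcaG
Reads from the d and n copies cannot be told apart here, so the counts leave their use unmeasured.

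Number 14-3 is the opposite case, with all 3 copies among the 7 most used segments. Trav14n-3, Trav14d-3-dv8 and Trav14-3 had summed counts of 1143, 904 and 778 and together held 13.9 ± 1.82% of Trav counts. Over 361 coding bases Trav14-3 differed from Trav14d-3-dv8 at 10 positions and from Trav14n-3 at 10, and the d and n copies differed from each other at 12. The stretch of 120 bases with most differences is shown, with the 8 positions that are not the same in all 3 in capitals.
Trav14n-3, chr14:53370409-53370528, plus strand: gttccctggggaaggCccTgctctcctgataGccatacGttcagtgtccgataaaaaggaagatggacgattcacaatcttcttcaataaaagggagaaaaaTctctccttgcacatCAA
Trav14d-3-dv8, chr14:53078879-53078998, plus strand: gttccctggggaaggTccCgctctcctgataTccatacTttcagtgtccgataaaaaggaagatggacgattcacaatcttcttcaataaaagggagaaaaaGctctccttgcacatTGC
Trav14-3, chr14:53763528-53763647, plus strand: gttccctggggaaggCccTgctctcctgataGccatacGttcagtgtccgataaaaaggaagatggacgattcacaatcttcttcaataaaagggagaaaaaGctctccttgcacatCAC
Of their 100-base windows, 77.1%, 98.04% and 76.8% occurred in no other gene. Counts per unique window gave 6.70 ± 1.19% for Trav14n-3, 3.00 ± 0.366% for Trav14d-3-dv8 and 4.22 ± 0.805% for Trav14-3.

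The counts of the d and n copies of the other most used segments ranged from none to a minor part of their number's total. Trav4d-4, Trav4n-4, Trav9d-2, Trav9n-2, Trav7d-5, Trav7n-5, Trav12d-3 and Trav12n-3 had no count. Apart from Trav12n-3, with 2.36%, they had no unique 100-base window, so these counts of 0 do not measure their use. Trav13d-1 and Trav13n-1 had 47 and 83 counts beside 846 for Trav13-1, and 47.5% and 43.1% of their windows were unique. Trav9d-4 and Trav9n-4 had 1 and 123 beside 630 for Trav9-4. Per unique window Trav9n-4 held 1.15% beside 2.94% for Trav9-4. In number 6-6 the n copy alone was counted, with 53, 39, 73 and 41 counts for Trav6n-6, while Trav6d-6 and Trav6-6, whose coding sequences had no difference, were at 0.

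**Figure D4:**
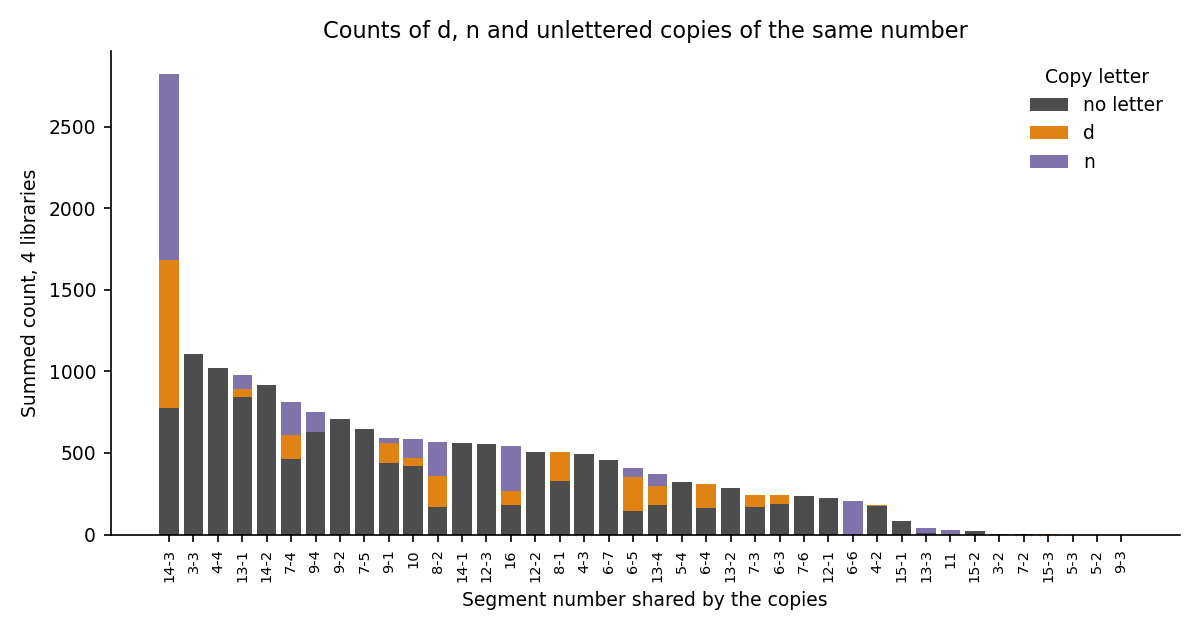
Summed count over the 4 libraries for each of the 40 segment numbers present as more than 1 copy, stacked by copy letter. Number 14-3 stands highest with 2825 counts shared among its 3 copies, and number 3-3 follows with all 1109 counts on the unlettered copy.

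Trav11 gives the alpha chain of invariant natural killer T (NKT) cells, joined to Traj18. It had no count in any library, and neither had Trav11d, while the pseudogene Trav11n had 10, 5, 0 and 10 counts. Trav11 and Trav11d had no difference over 342 coding bases, and Trav11n differed from both at 8 positions. The stretch with most differences is shown, with the 4 differing positions in capitals.
Trav11, chr14:53519614-53519733, plus strand: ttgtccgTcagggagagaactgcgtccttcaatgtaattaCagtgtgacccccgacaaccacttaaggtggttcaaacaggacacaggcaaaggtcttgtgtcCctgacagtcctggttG
Trav11d, chr14:52824668-52824787, plus strand: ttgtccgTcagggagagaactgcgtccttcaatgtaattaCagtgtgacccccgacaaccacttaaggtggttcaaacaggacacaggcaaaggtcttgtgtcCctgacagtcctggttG
Trav11n, chr14:53135433-53135552, plus strand: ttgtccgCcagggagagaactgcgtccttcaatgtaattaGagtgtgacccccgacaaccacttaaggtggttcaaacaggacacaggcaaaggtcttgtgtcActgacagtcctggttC
Only 0.41% of the 100-base windows of Trav11, none of Trav11d and all of Trav11n were unique, so the 0 of Trav11 does not measure its use. Zbtb16, the defining transcription factor of NKT cells, had 7, 0, 0 and 1 counts, and Klrb1c, an NK receptor that these cells also carry, had 2, 0, 0 and 0.

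Trav1, which gives the alpha chain of mucosal-associated invariant T (MAIT) cells when joined to Traj33, had only unique windows. Its 41, 53, 22 and 44 counts had an SD of 0.69 on the log2 CPM scale, with replicate 3 lowest. The counts do not show whether it was joined to Traj33, which itself had 6, 5, 1 and 5 counts.

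The 10 members with dv in the symbol held 14.6 ± 0.816% of Trav counts, and 6 were detected. Beside Trav4-4-dv10 and Trav14d-3-dv8, these were Trav6-7-dv9 (124, 89, 178 and 68 counts), Trav21-dv12 (67, 49, 74 and 73), Trav13-4-dv7 (47, 26, 55 and 54) and Trav15-1-dv6-1 (10, 18, 31 and 23). Trav16d-dv11 had 15, 19, 38 and 9 counts and Trav15-2-dv6-2 had 3, 14, 7 and 0. Trav15d-1-dv6d-1 and Trav15d-2-dv6d-2 were at 0. Of their 100-base windows, 17.9% of those of Trav15d-1-dv6d-1 and none of those of Trav15d-2-dv6d-2 were unique. Trdc, the delta constant region, lay at 1.17 ± 0.0508 TPM and the 6 Trdv segments, which serve only the delta chain, had 42, 29, 77 and 33 counts together. Of 6 markers of gamma-delta T cells, only Trdc reached 1 TPM in every library.

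The 20 pseudogenes, which carry a defect that keeps them from giving a working chain, held 1.29 ± 0.30% of Trav counts. Trav8-2 gave most of this, with 44, 29, 57 and 36 counts, and was the only pseudogene detected. Trav11n and Trav9n-1 (3, 3, 14 and 8 counts) followed. Of the others, 11 had no count.

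Shares were compared between the libraries segment by segment. Across the 58 detected members, the correlation of shares between pairs of libraries ran from 0.887 to 0.949 (Pearson) and from 0.80 to 0.876 (Spearman), as a description over members of the same locus. Replicates 1 and 2 had r = 0.917 and replicates 3 and 4 r = 0.908, within the range of the other pairs. Between 3 and 8 of the 58 members differed by more than 2-fold in share between 2 libraries. The counts varied more than counting alone gives, with a chi-square per degree of freedom of 4.45 over the 58 members (1 is the value for counting error alone), and of 3.52 to 5.47 between single pairs.

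That spread was set against genes of similar abundance with edgeR's quasi-likelihood fit over all genes. At an adjusted p below 0.05 (Benjamini-Hochberg over all genes tested), 0 of 57 Trav segments tested passed as varying more than the trend. Of all 12285 genes tested, 28 passed, or 0.228%, so 0 calls among 57 segments is near the background. A segment that did not pass is not shown to vary as little as the trend, since 4 libraries and low counts limit the test. At an unadjusted p below 0.05 edgeR called 0 Trav segments and 666 of all genes (5.42%), and DESeq2 marked 0 Trav segments and 68 of all genes as dispersion outliers. The lowest adjusted p of a Trav segment was 0.921, for Trav9n-4. The median SD of log2 CPM was 0.35 for the Trav segments (0.08 to 0.86) and 0.10 for all genes tested, and 0.32 for the 3214 other genes in the same range of mean log2 CPM.

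The most variable detected member was Trav9n-4, with 12, 36, 58 and 17 counts (SD 0.86, adjusted p = 0.921 from edgeR), highest in replicate 3. Trav3-4 had 40, 33, 30 and 10 counts (SD 0.73), Trav1 had 41, 53, 22 and 44 (SD 0.69), Trav13d-4 had 23, 47, 30 and 13 (SD 0.68) and Trav2 had 25, 36, 49 and 12 (SD 0.67). Trav3-4, Trav13d-4 and Trav2 were lowest in replicate 4, the shallowest library, whereas Trav9n-4 was lowest in replicate 1 and Trav1 in replicate 3. The least variable was Trav10, with 107, 101, 128 and 84 counts (SD 0.08), which held between 1.84% and 2.17% of Trav counts in each library. Trav12-1 (54, 51, 74 and 47), Trav7-3 (39, 40, 54 and 38) and Trav6-3 (46, 40, 61 and 41) each had an SD of 0.10, and Trav16 (50, 37, 56 and 40) of 0.12.

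**Figure D5:**
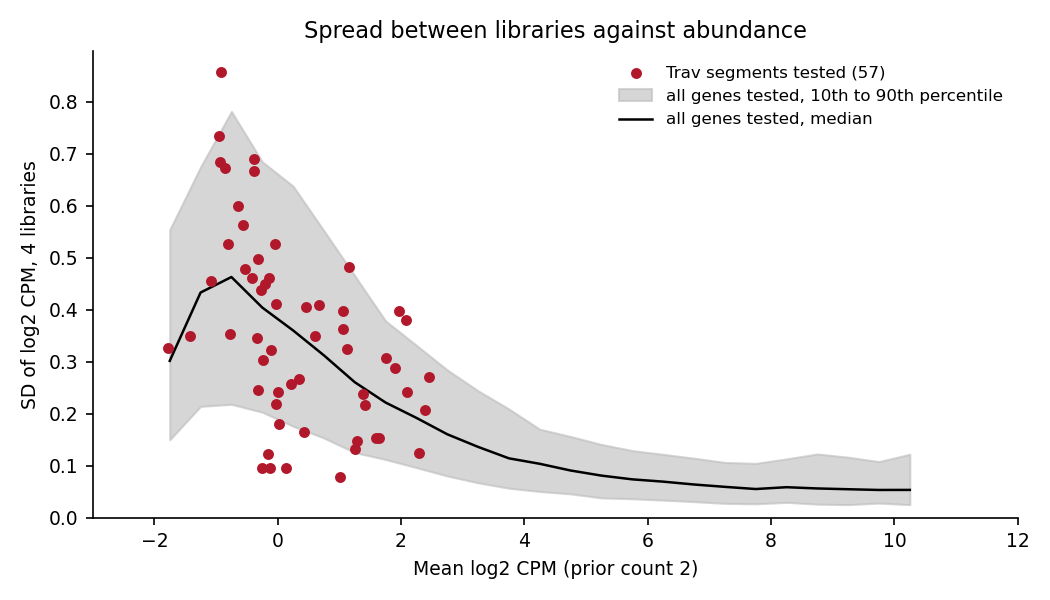
SD of log2 CPM over the 4 libraries against mean log2 CPM for the 57 Trav segments tested, over the median and the 10th to 90th percentile of all genes tested. The Trav segments lie at low abundance and around the median of all genes there, with Trav9n-4 highest at 0.86.

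Other genes of receptor assembly were read beside the segments. Of 21 such genes, 14 reached 1 TPM in every library, and edgeR called 0 of the 15 tested. The expressed ones included Cd3e (14905, 14842, 19140 and 15059 counts), a signalling chain of the receptor complex, and Tcf7 (33048, 31384, 39199 and 30064), a T cell transcription factor. Rag2, a subunit of the enzyme that cuts the segments, had no count, and Rag1, its partner, had 0, 0, 6 and 6. The 60 Traj segments had 570, 374, 382 and 488 counts together, and the 35 Trbv segments, the V segments of the beta chain, had 9471, 8370, 10806 and 7716. A pair of V genes inside the locus whose symbols do not start with Trav, C920008G01Rik (53020416 to 53020991) and B230359F08Rik (53795357 to 53795963), had no count and 18, 13, 24 and 2 counts, and they are not among the members.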

How the data were processed

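RNA-seq counts of 4 mouse T cell libraries (1 group) were used. The values are whole-number counts that the authors deposited unscaled. Per the file headers, featureCounts 1.4.6-p4 summed exon hits by gene over GENCODE M13 (mm10), keeping pairs with 2 aligned mates on the reverse strand (setting 2), from STAR alignments. The STAR version was not given in the sources used. The recorded command has no option for pairs that map to several places or touch several genes, so such pairs were not counted. This removes reads shared by copies and pairs that also touch another gene. The assay is total RNA-seq by its label, whereas the linked library protocol is named for polyA+ RNA. Which applies, and the read length, are not given in the sources used here.

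Symbols, gene types and transcript sequences came from GENCODE M21, where 50376 of 50600 identifiers matched and 128 of 128 members had the same exonic length. Shares, TPM (from deposited counts and exonic length), Wilson intervals (95%) and identities were computed with Python 3.11.15, pandas 2.3.3, scipy 1.17.1 and edlib 1.3.9.post1. A window was unique when its bases occurred, on either strand, in no transcript of another gene. The genome itself was not searched. The test of spread used edgeR 4.0.16 under R 4.3.3 (TMM, filterByExpr, intercept only, robust quasi-likelihood; residual quasi-dispersion against the trended prior, upper tail, Benjamini-Hochberg over all genes at 0.05) and checked on simulated counts. DESeq2 1.42.0 gave alternatives.

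A member was detected at 10 counts in every library. The members and lists were chosen with earlier results of these data known. Named by rule were the 12 most used members, the 5 with the largest and the 5 with the smallest SD of log2 CPM (prior count 2), the 3 most used pseudogenes, the nearest and the farthest member, Trav1, Trav11, the Trav14 subgroup, those with dv in the symbol, and the d and n copies of named members. Others, such as Trav17 and Trav6n-6, were chosen after their values were seen, as were the 200 kb steps. Alternatives covered scaling, filters, the test, count floors, exonic length, pseudogenes, copies and each replicate left out.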

Additional observations from a re-analysis of the deposited data

Results flagged for a closer look

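Dixon's test for a library apart from the others was applied to 43 values over the 4 libraries and marked 3, while chance marks about 1 in 20. The share of Trav14d-3-dv8 was lower in replicate 1 than in the other 3 libraries, with a gap of 0.853 of the whole range. The share of Trav9-2 was lower in replicate 3, the deepest library, with a gap of 0.8291 of the range. The summed Trav CPM was lower in replicate 1, at 92.1 beside 98.3, 98.6 and 99.0 in replicates 2 to 4, with a gap of 0.899 of the range.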

How the results depend on the processing

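edgeR or DESeq2 called 0 Trav segments under all 9 alternatives to the spread test. In the main setting 28 of 12285 genes tested (0.228%) were called. At so low a share, 0 calls among 57 Trav segments is near the background and is no result about the segments. The count over all genes was 142 with no filter on low counts, 15 with a non-robust prior, 68 as DESeq2 dispersion outliers, and 14 to 27 with each replicate left out, lowest without replicate 3. The numbers of genes tested under these alternatives are not given here, so these counts stand without a share. Detected members numbered 24 at a floor of 50 counts. Trav segments took 0.0844% of TPM. Without the subgroups that have d or n copies 9 members were left, with an effective number of 3.89 and 77.6% in the near set. All of these 9 but Trav1 and Trav2 lay in the near set, so its 77.6% is close to its part of the members. No share of the 10 most used can be given. Settings chosen after seeing the data were counts per unique 100-base window and members with at least 50% unique windows. The first covered only members with at least 50 unique windows. Per window the near set held 65.0%, unlettered members 72.9% and n copies 15.8%. With the second setting these were 70.2%, 77.6% and 11.8%, and the effective number was 32.8. The cause of these shifts was not tested.

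Of the 12 most used segments, 11 were also among the first 12 per exonic length and 9 per unique window. Of the shares of the 32 named members with at least 50 unique windows, 11 moved by more than their SD per unique window. No paired analysis was possible because the labels give 1 group. Counts of segments under the floor and of copies without unique sequence are limited by depth and mapping.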
